A study of Mus musculus with 12 samples.

Results

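The question taken up here is whether antagomir-21, an antisense inhibitor of miR-21, changed gene expression of peritoneal macrophages (PMs) differently when the cells received exosomes rich in miR-21 than when they received control exosomes. It was read from 8 of the 12 mouse expression arrays of the series, those whose titles name a scramble oligonucleotide or antagomir-21. They form 4 groups of 2 arrays: PMs transfected with scramble and given exosomes of sensory neurons with a GFP reporter, PMs transfected with antagomir-21 and given the same exosomes, and both transfections again with exosomes of neurons overexpressing miR-21. The other 4 arrays, of lipofectamine (the transfection reagent) with either exosome, are outside the contrast and were used for the estimate of spread, the choice of probe set and a side comparison. The labels give no strain, sex or age for these arrays; per the methods, PMs came from peritoneal lavage of C57BL/6 mice, were purified by adhesion and were cultured for 48 h after transfection, and all groups share lipofection and exposure to neuronal exosomes. No group lacked exosomes, so the contrast compares exosome types and not exosomes with none. The labels give 2 replicates per group, where the methods state 3, and do not say that they are separate cultures or animals, so p-values measure only the spread between these arrays.

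MicroRNAs are short RNAs that guide silencing proteins to messenger RNAs whose sequence pairs with the seed near the 5′ end of the microRNA, which lowers the stability or the translation of these messengers. Exosomes are vesicles that cells release and that can carry microRNAs into other cells. MiR-21-5p, the main strand of the miR-21 hairpin, is abundant in macrophages, and its known targets include *Pdcd4*, *Spry1*, *Spry2*, *Reck* and *Smad7*, several of which restrain growth factor, inflammatory or TGF-β signaling. The sequences below are the 2 mature strands from RefSeq (mouse, GRCm38.p6), shown because the antagomir is directed at the first and the donor neurons overexpressed miR-21, with the seed, bases 2 to 8, in capitals. Their positions, both on the minus strand, are chr11:86584120-86584141 for the 5p strand and chr11:86584082-86584103 for the 3p strand.
mmu-miR-21a-5p: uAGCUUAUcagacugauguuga
mmu-miR-21a-3p: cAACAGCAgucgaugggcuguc
The arrays read messenger RNA and not mature microRNA, so neither the loss of miR-21 after antagomir-21 nor its delivery by exosomes could be checked on them.

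All 8 arrays read macrophage RNA. *Csf1r*, which encodes the M-CSF receptor, lay between 15.65 and 17.79 on the log2 scale, *Lyz2* (lysozyme) between 15.81 and 17.99, and *Adgre1*, a surface marker of tissue macrophages, between 11.70 and 13.78. Arrays of 1 group were not more alike than arrays of different groups: across 18193 genes the 4 pairs within groups had a mean r of 0.571 and the 24 pairs between groups a mean r of 0.589. The median log2 signal of these arrays ran from 7.92 to 8.58 and the SD over genes from 2.04 to 2.48. Signals gathered around a lower and a higher level, with 8.91% of all values between 4 and 5, 6.85% between 6 and 7 and 21.7% between 8 and 9. Many genes described below had arrays at both levels, and the table does not tell which of these signals are above background.

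The interaction is the log2 change after antagomir-21 with miR-21 exosomes minus the log2 change after antagomir-21 with GFP exosomes. A positive value means that the antagomir moved the gene further up, or less far down, when the exosomes carried miR-21. No gene passed an adjusted p under 0.05 from limma (0 of 18193, 0%; smallest adjusted p = 0.593). At an unadjusted p under 0.05, 975 genes passed (5.36%), 511 with a positive interaction (2.81%) and 464 with a negative one (2.55%), a share close to the 5% that this threshold passes when nothing differs. The median SE of an interaction was 1.85 and the SD of the interactions over genes was 2.08. Values below are therefore descriptions of these arrays.

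The change after antagomir-21 with one exosome told little about the change with the other. The change had an SD over genes of 1.50 with GFP exosomes and 1.47 with miR-21 exosomes, and their correlation across 18193 genes was 0.019, with no array shared between them and genes not independent. In 48.8% of all genes the changes with the 2 exosomes had opposite signs. Above the median signal the correlation was 0.044 and at or below it −0.012. The interaction had 1 sign in all 16 choices of 1 array per group in 2635 genes (14.5%). In 806 genes (4.43%) the antagomir-21 and scramble arrays did not overlap with either exosome and the change had opposite directions. As many, also 806 (4.43%), did not overlap with either exosome and changed in the same direction.

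**Figure D1:**
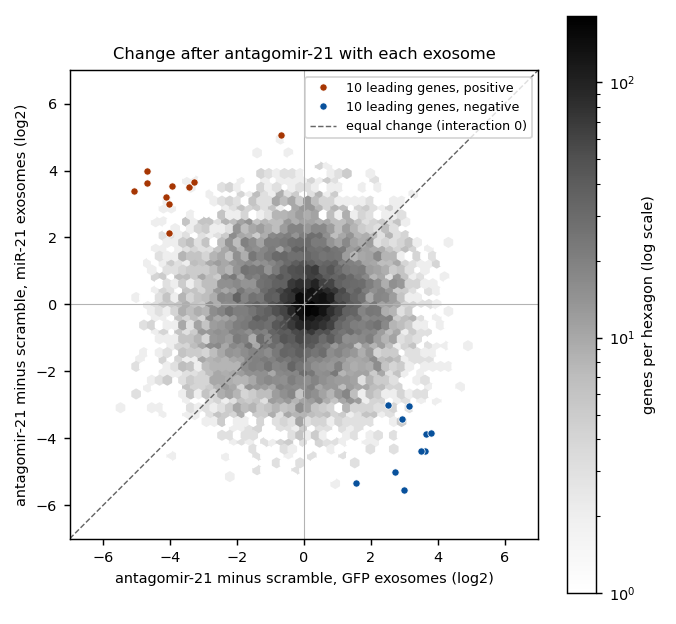
The log2 change after antagomir-21 against scramble with GFP exosomes (x axis) and with miR-21 exosomes (y axis), for 18193 genes as shaded hexagons. Points are the 10 genes of each direction with the smallest unadjusted p among those with 1 sign in all 16 choices of 1 array per group. The cloud is round (r 0.019), and the 20 genes lie in the quadrants of opposite signs, off the dashed line of equal change.

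The 10 leading genes of positive interaction, those with the smallest unadjusted p among genes with 1 sign in all 16 choices, were *Pnmal1*, *Gzmn*, *1700017N19Rik*, *Tmem37*, *Gm13483*, *Tmem88b*, *Gab3*, *Aldh1a7*, *4930447K03Rik* and *Ptpn21*. Their interactions ran from 5.76 to 8.67. *Pnmal1*, a paraneoplastic antigen-like gene, led them. Its log2 signals were 9.85 and 8.43 with scramble and 3.45 and 4.68 with antagomir-21 among GFP exosome arrays, and 5.36 and 4.75 with scramble and 8.02 and 8.85 with antagomir-21 among miR-21 exosome arrays. The scramble arrays were high with GFP exosomes and low with miR-21 exosomes, the antagomir arrays the reverse, and the 4 high arrays did not overlap the 4 low ones. The change after antagomir-21 was −5.07 with GFP exosomes and 3.38 with miR-21 exosomes, an interaction of 8.46 (SE 1.39). *Gzmn*, a granzyme, had log2 signals of 8.95 and 7.03 (scramble) and 3.87 and 3.88 (antagomir-21) with GFP exosomes, against 4.55 and 5.22 (scramble) and 8.29 and 7.88 (antagomir-21) with miR-21 exosomes. Scramble with GFP exosomes and antagomir-21 with miR-21 exosomes were again the high groups, with an interaction of 7.31 (SE 1.26). *Tmem37*, related to the gamma subunits of calcium channels, read 7.96 and 8.02 with scramble and GFP exosomes, 3.78 and 5.36 with antagomir-21 and GFP exosomes, 4.89 and 4.65 with scramble and miR-21 exosomes, and 8.74 and 7.84 with antagomir-21 and miR-21 exosomes, an interaction of 6.94 (SE 1.24).

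*Gab3*, an adaptor protein downstream of the macrophage colony-stimulating factor receptor, is the one of these genes with a known place in macrophage signaling. Its log2 signals were 8.73 and 8.44 with scramble and 4.89 and 4.23 with antagomir-21 among GFP exosome arrays, and 5.10 and 5.15 with scramble and 7.78 and 6.72 with antagomir-21 among miR-21 exosome arrays. Both antagomir arrays with GFP exosomes and both scramble arrays with miR-21 exosomes lay below all 4 others, and the interaction was 6.15 (SE 1.20). *Tmem88b*, a membrane protein, had another pattern. It read 9.05 and 8.63 (scramble) and 8.25 and 8.04 (antagomir-21) with GFP exosomes, against 4.28 and 4.07 (scramble) and 9.40 and 9.08 (antagomir-21) with miR-21 exosomes, so that scramble with miR-21 exosomes alone stood apart from 3 groups that lay close to each other, with an interaction of 5.76 (SE 1.10). *Aldh1a7*, an aldehyde dehydrogenase, and *Ptpn21*, a tyrosine phosphatase, had interactions of 6.94 (SE 1.39) and 7.49 (SE 1.56). The interactions of *1700017N19Rik*, *Gm13483* and *4930447K03Rik* were 8.30, 8.67 and 7.01. In these 10 genes the change after antagomir-21 ran from −5.07 to −0.70 with GFP exosomes and from 2.12 to 5.06 with miR-21 exosomes.

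The 10 leading genes of negative interaction were *Kcnh8*, *Olfml2b*, *1700018L02Rik*, *Gm10658*, *Fzd6*, *Bhlha15*, *Kcne3*, *Mlh3*, *Spata17* and *Cd209f*. Their interactions ran from −8.53 to −5.53. *Kcnh8*, a voltage-gated potassium channel, read 4.48 and 4.59 with scramble and 7.49 and 8.82 with antagomir-21 among GFP exosome arrays, and 9.14 and 8.50 with scramble and 4.48 and 4.40 with antagomir-21 among miR-21 exosome arrays. With GFP exosomes it was higher after antagomir-21, by 3.62, and with miR-21 exosomes lower, with a change of −4.38. Its interaction was −8.00 (SE 1.31). *Fzd6*, a Frizzled receptor of Wnt ligands, had log2 signals of 4.39 and 5.57 (scramble) and 7.85 and 8.40 (antagomir-21) with GFP exosomes, against 9.08 and 8.69 (scramble) and 6.19 and 5.54 (antagomir-21) with miR-21 exosomes. The high groups were those of *Kcnh8*, and the interaction was −6.17 (SE 1.20). *Cd209f*, a C-type lectin of the DC-SIGN family, read 4.49 and 4.36 with scramble and GFP exosomes, 7.46 and 7.28 with antagomir-21 and GFP exosomes, 9.16 and 6.89 with scramble and miR-21 exosomes, and 4.52 and 4.66 with antagomir-21 and miR-21 exosomes. Its 4 low arrays lay between 4.36 and 4.66, and the interaction was −6.38 (SE 1.36).

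*Olfml2b*, an olfactomedin-like protein of the matrix, had log2 signals of 3.94 and 6.54 with scramble and 8.49 and 7.96 with antagomir-21 among GFP exosome arrays, and 9.22 and 8.33 with scramble and 3.01 and 3.45 with antagomir-21 among miR-21 exosome arrays, an interaction of −8.53 (SE 1.51). *Bhlha15*, a transcription factor of secretory cells also known as Mist1, read 4.56 and 4.50 (scramble) and 8.25 and 7.79 (antagomir-21) with GFP exosomes, against 9.76 and 9.11 (scramble) and 4.51 and 5.63 (antagomir-21) with miR-21 exosomes, an interaction of −7.86 (SE 1.57). In both genes the scramble arrays with miR-21 exosomes were the highest group and the 4 high arrays stood clear of the 4 low ones. *Mlh3*, a DNA mismatch repair protein, read 6.30 and 7.32 with scramble and GFP exosomes, 8.67 and 8.09 with antagomir-21 and GFP exosomes, 9.43 and 9.82 with scramble and miR-21 exosomes, and 5.16 and 3.41 with antagomir-21 and miR-21 exosomes, an interaction of −6.91 (SE 1.44). *Kcne3*, a beta subunit of potassium channels, had an interaction of −7.73 (SE 1.59), *Spata17* of −5.53 (SE 1.15), *1700018L02Rik* of −7.52 (SE 1.43) and *Gm10658* of −7.63 (SE 1.48). In these 10 genes the change after antagomir-21 ran from 1.57 to 3.78 with GFP exosomes and from −5.55 to −3.02 with miR-21 exosomes. None of the 20 genes of either direction passed the adjusted test (adjusted p = 0.593 from limma for each).

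**Figure D2:**
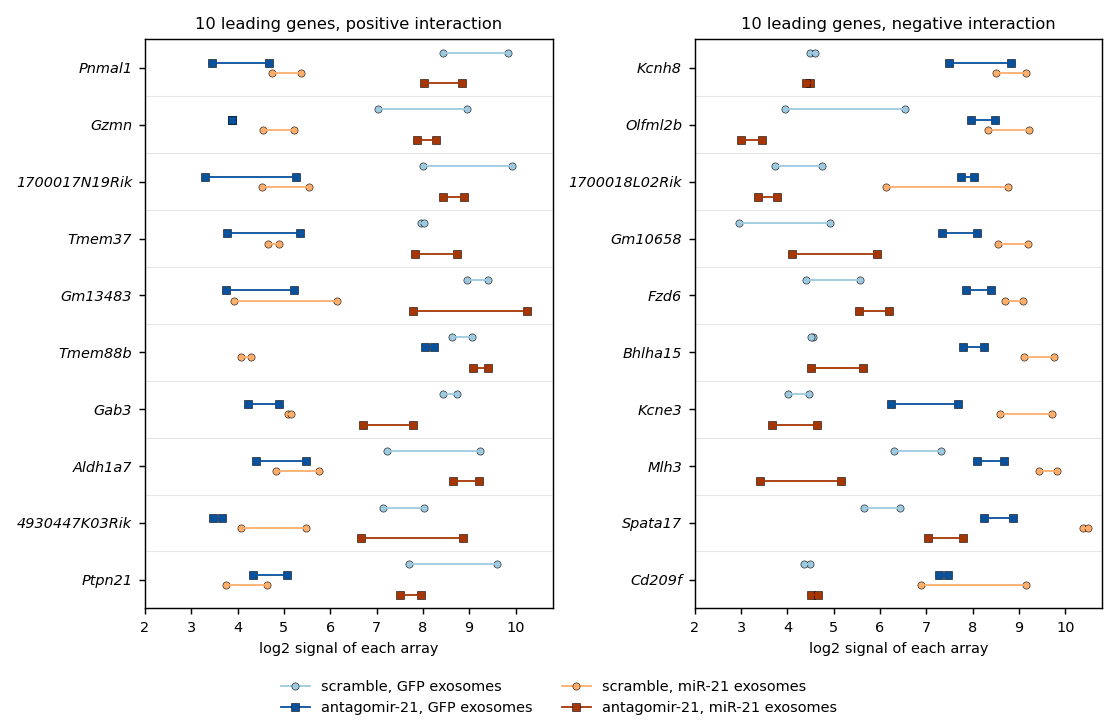
Log2 signal of each array (x axis) for the 10 leading genes of each direction, with 2 points per group joined by a line. In most genes 2 groups lie near 4 and the other groups near 8, and *Tmem88b* shows 1 low group, scramble with miR-21 exosomes, against 3 high ones.

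The 20 leading genes were of low to middling mean signal. A gene read at the lower level in 2 groups and at the higher level in the others has such a mean by construction, so this describes the selection. When all genes were cut by mean signal over the 12 arrays into 4 classes of equal size, 18 of the 20 lay in the 2 dimmer classes, 2 in the next and 0 in the brightest. Among all genes, the share at an unadjusted p under 0.05 was 8.66% and 8.73% in the 2 dimmer classes (394 and 397 genes), 3.85% in the next (175 genes) and 0.198% in the brightest (9 genes), although the median SE was 2.21 in the dimmest class and 1.33 in the brightest. In all 20 genes the change after antagomir-21 had opposite signs with the 2 exosomes, in 19 of them with a size of at least 1 in both. Of the 975 genes, 688 had this crossed pattern (70.6%), 136 changed by at least 1 with GFP exosomes only, 143 with miR-21 exosomes only and 8 in the same direction with both. Among all genes the crossed pattern was found in 10.9%. A contrast of this kind selects crossed patterns, so these shares describe the genes that passed and are not a result about the antagomir. In 645 of the 975 genes (66.2%, against 64.6% of all genes) no single group stood apart from the other 3 by more than 2 times their range. Where a group did, the most common case was antagomir-21 with GFP exosomes below the rest (115 genes, 11.8%), a case found in 5.85% of all genes, near the 5.98% with scramble and miR-21 exosomes below the rest.

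Lipofectamine arrays, which are outside the contrast, and other probe sets of the same genes showed how far the pattern recurred. In the arrays of lipofectamine, the exosome difference (miR-21 minus GFP) had the sign of that after scramble in 11 of the 20 leading genes and of that after antagomir-21 in 9. For the 975 genes these shares were 58.7% and 41.7%, against 54.8% and 49.7% of all genes. *Kcnh8* was one of those that differed: its exosome difference was 4.29 after scramble and −2.54 with lipofectamine. In *Pnmal1* the difference was −4.08 after scramble and −3.25 with lipofectamine. With lipofectamine in place of scramble, all 20 leading genes kept the sign of the interaction and 12 passed the unadjusted threshold. The antagomir arrays are shared with the contrast that chose the genes, so these counts are no independent support. In that fit the interaction of *Pnmal1* was 7.62, whereas *Tmem37*, *Tmem88b* and *Kcnh8* were among the weaker, at 1.76, 0.76 and −1.17. Other probe sets of the same gene, which read the same arrays, had the sign of the interaction in 273 of 558 cases (48.9%) for the 354 of the 975 genes that had any, against 51.1% over all genes. Of the 20 leading genes, 6 had other probe sets, and 4 of these 9 probe sets had the same sign. The other probe set of *Pnmal1* had an interaction of 0.76, beside 8.46 on the one used. Those of *Ptpn21* were at −0.50 and 0.70, that of *Bhlha15* at 0.39 and those of *Fzd6* at −2.35 and −0.87, far below the values above in size. For *Gm10658* (4.83 and 1.69) and *Spata17* (4.11) the sign was the other one. Where the other probe set was above the mean signal, 18 of 27 had the same sign (66.7%, against 53.2% over all genes).

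TGF-β signaling, which the study places downstream of miR-21 in macrophages, runs from the ligand, encoded by *Tgfb1*, through a complex of the type II receptor (*Tgfbr2*) and the type I receptor (*Tgfbr1*), with betaglycan (*Tgfbr3*) as coreceptor, to Smad transcription factors, and is held back by the inhibitory Smad encoded by *Smad7*. *Tgfb1* read 5.38 and 9.24 with scramble and 9.23 and 9.10 with antagomir-21 among GFP exosome arrays, and 9.09 and 4.47 with scramble and 10.27 and 8.68 with antagomir-21 among miR-21 exosome arrays. Single arrays of both scramble groups were low, the groups overlapped with either exosome, and the interaction was 0.84 (SE 2.34), with a 95% confidence interval of −4.35 to 6.03. *Tgfbr2* was brightly read, at 10.98 and 12.06 (scramble) and 12.17 and 11.81 (antagomir-21) with GFP exosomes, against 10.04 and 12.11 (scramble) and 12.56 and 10.34 (antagomir-21) with miR-21 exosomes, and its interaction was −0.09 (SE 1.49), with an interval of −3.41 to 3.22. Its values with antagomir-21 and miR-21 exosomes held both the second lowest and the highest of the 8. *Tgfbr1* read 10.02 and 10.82 with scramble and GFP exosomes, 11.24 and 10.93 with antagomir-21 and GFP exosomes, 8.78 and 9.89 with scramble and miR-21 exosomes, and 11.00 and 9.30 with antagomir-21 and miR-21 exosomes, and its interaction was 0.15 (SE 1.28), with an interval of −2.70 to 3.01. *Tgfbr3* had values from 7.33 to 9.92 and an interaction of 1.15 (SE 2.02), with an interval of −3.34 to 5.63. For *Smad7* the interaction was 0.20 (SE 2.06). Unadjusted p from limma lay between 0.582 (*Tgfbr3*) and 0.951 (*Tgfbr2*) for these genes. The intervals are wide, and an interaction of 2 in either direction lies inside each of those printed.

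Other probe sets of the same genes did not give the same values. For *Tgfbr2* they had interactions of 3.07 and −0.87, for *Tgfbr1* of 1.27 and 3.0, for *Tgfbr3* of 3.76, for *Tgfb1* of 2.65 and for *Smad7* of −2.14. Without 1 array at a time, the interaction of *Tgfbr2* ran from −1.21 to 1.02 and that of *Tgfb1* from −1.47 to 3.15, so that its sign was set by single arrays in both. *Mrc1*, the mannose receptor of alternatively activated macrophages, read 10.84 and 11.93 with scramble and 12.26 and 11.90 with antagomir-21 among GFP exosome arrays, and 10.32 and 11.56 with scramble and 12.34 and 11.22 with antagomir-21 among miR-21 exosome arrays, and its interaction was 0.15 (SE 1.27), with an interval of −2.67 to 2.97. *Tnfrsf19*, a member of the TNF receptor superfamily, had values as far apart within as between groups, 8.91 and 8.11 (scramble) and 7.81 and 3.73 (antagomir-21) with GFP exosomes, against 6.12 and 9.08 (scramble) and 3.64 and 7.98 (antagomir-21) with miR-21 exosomes, with an interaction of 0.95 (SE 2.57). Its other probe sets had the opposite sign, at −5.07, past the unadjusted threshold (unadjusted p = 0.0402 from limma), and −2.57.

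**Figure D3:**
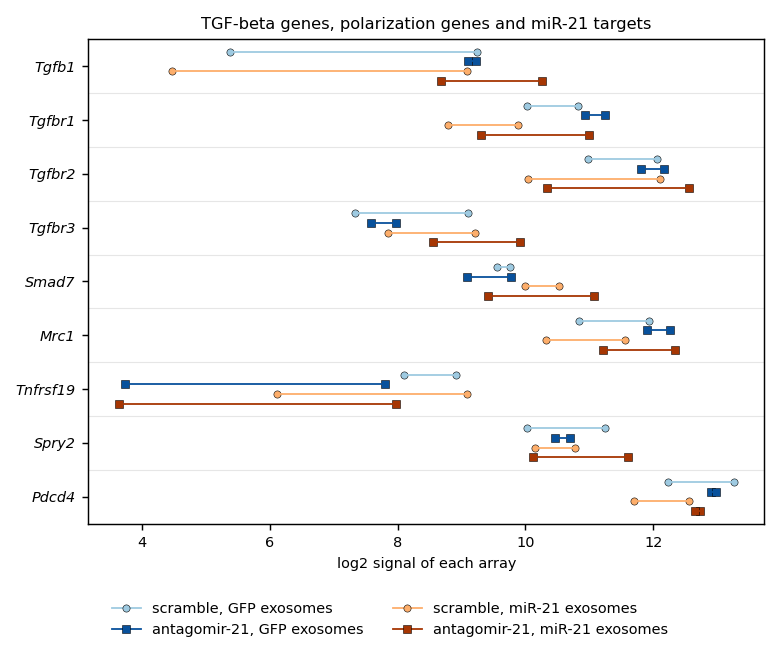
Log2 signal of each array (x axis) for genes of TGF-β signaling, macrophage activation and miR-21 targeting, with 2 points per group joined by a line. The groups overlap in most genes, and both scramble groups of *Tgfb1* span from about 5 to 9.

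Among 12 receptors and coreceptors of the TGF-β family, 6 interactions were positive and 6 negative with a median of 0.03, beside −0.12 over all genes. The share past the unadjusted threshold was 8.33%, against 5.36% of all genes, of which 47.1% were positive. *Bmpr1b*, a type I receptor of bone morphogenetic proteins, was the 1 member past the unadjusted threshold, at 9.88 and 8.62 with scramble and 4.55 and 6.70 with antagomir-21 among GFP exosome arrays, and 9.14 and 7.57 with scramble and 8.09 and 9.63 with antagomir-21 among miR-21 exosome arrays. Both antagomir arrays with GFP exosomes lay below the other 6, with an interaction of 4.13 (SE 1.57). The other probe set of *Eng*, also in this list, was at 5.30 and past the unadjusted threshold, beside −1.85 on the one used. Among 19 ligands and genes of their activation, 12 were positive and 7 negative (median 0.33) and none passed; the interaction of *Itgb8*, an integrin chain that activates latent TGF-β, was 4.16 (SE 1.99). The Smads and their inhibitors had 9 positive and 7 negative members (median 0.18), with 2.88 (SE 1.70) for *Smad2* and −2.21 (SE 1.61) for *Smad3*, and none passed. The sign of both was the other one on further probe sets, −3.37 for *Smad2* and 0.03 and 3.86 for *Smad3*. Of 17 genes that TGF-β induces, 4 were positive and 13 negative (median −0.47), and 5.88% passed the unadjusted threshold, against 5.36% of all genes. The one that passed, *Ccn2*, which encodes connective tissue growth factor, was among the positive members. It read 7.92 and 6.50 (scramble) and 3.37 and 4.25 (antagomir-21) with GFP exosomes, against 4.57 and 3.79 (scramble) and 8.13 and 7.20 (antagomir-21) with miR-21 exosomes. Its signals were high with scramble and GFP exosomes and with antagomir-21 and miR-21 exosomes, low in the other groups, and its interaction was 6.89 (SE 1.59). *Fn1*, which encodes fibronectin, another gene that TGF-β induces, had an interaction of −1.47 (SE 1.36).

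Known targets of miR-21 gave no common direction. Over all genes, 47.1% of interactions were positive and 5.36% passed the unadjusted threshold. Of 28 targets measured, 13 had a positive and 15 a negative interaction (median −0.05), and 1 passed this threshold (3.57%). That was *Spry1*, an inhibitor of receptor tyrosine kinase signaling, at 5.03 and 2.77 with scramble and 5.82 and 7.94 with antagomir-21 among GFP exosome arrays, and 9.34 and 7.82 with scramble and 4.67 and 6.97 with antagomir-21 among miR-21 exosome arrays. It was lowest with scramble and GFP exosomes and highest with scramble and miR-21 exosomes, so that its change after antagomir-21 was 2.98 with GFP exosomes and −2.75 with miR-21 exosomes, an interaction of −5.74 (SE 1.77). It did not pass the adjusted test (adjusted p = 0.802 from limma). Its paralog *Spry2* read 10.03 and 11.25 (scramble) and 10.69 and 10.46 (antagomir-21) with GFP exosomes, against 10.77 and 10.14 (scramble) and 10.12 and 11.60 (antagomir-21) with miR-21 exosomes, with an interaction of 0.47 (SE 1.32) and an interval of −2.47 to 3.40. *Pdcd4*, a tumor suppressor that restrains translation, read 12.22 and 13.26 with scramble and GFP exosomes, 12.90 and 12.97 with antagomir-21 and GFP exosomes, 11.70 and 12.56 with scramble and miR-21 exosomes, and 12.73 and 12.65 with antagomir-21 and miR-21 exosomes, with an interaction of 0.36 (SE 1.19) and an interval of −2.29 to 3.01. For *Reck*, an inhibitor of matrix metalloproteinases, the interaction was −4.69 (SE 2.46). *Vmp1*, whose gene overlaps that of the miR-21 precursor, had an interaction of 0.40 (SE 1.20). Genes of microRNA processing and silencing had 9 positive and 10 negative members (median −0.02), and *Xrn1*, the exonuclease that degrades decapped messengers, passed at −4.58 (SE 1.77). The share past the threshold in this list was 5.26%. Of 17 genes of exosome and endosomal sorting, 4 were positive, 13 negative and none passed (median −0.33). Other probe sets of *Stam*, a member of this list, were at 6.89, past the unadjusted threshold, −0.99 and −1.07, beside 2.65 on the one used.

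Proinflammatory genes had 19 positive and 9 negative interactions (median 0.41), where 47.1% of all genes were positive. In each direction 2 members passed the unadjusted threshold, which 2.81% of all genes passed in the positive and 2.55% in the negative direction. *Cd80*, a costimulatory ligand, read 9.17 and 8.95 with scramble and 9.25 and 8.17 with antagomir-21 among GFP exosome arrays, and 5.36 and 6.24 with scramble and 8.14 and 9.93 with antagomir-21 among miR-21 exosome arrays. Scramble with miR-21 exosomes was its low group, and the interaction was 3.59 (SE 1.30). *Ptgs2*, which encodes cyclooxygenase-2, read 10.10 and 9.66 (scramble) and 8.79 and 8.91 (antagomir-21) with GFP exosomes, against 8.63 and 6.28 (scramble) and 9.57 and 10.25 (antagomir-21) with miR-21 exosomes, with an interaction of 3.49 (SE 1.38). In the other direction, *Il1a* read 5.82 and 8.54 with scramble and GFP exosomes, 9.52 and 10.28 with antagomir-21 and GFP exosomes, 9.80 and 9.67 with scramble and miR-21 exosomes, and 9.10 and 8.57 with antagomir-21 and miR-21 exosomes, so that the scramble arrays with GFP exosomes held the 2 lowest values of this cytokine gene, and its interaction was −3.62 (SE 1.45). For *Il6*, another cytokine, it was −5.16 (SE 2.27), and it ran from −7.43 to −2.90 without 1 array at a time. The sign of 3 of these 4 depended on the processing: with the probe set of highest variance in place of the brightest, *Cd80* was at −2.16 and *Ptgs2* at −1.56, and with lipofectamine in place of scramble *Il6* was at 1.65. Antiinflammatory and alternative activation genes had 12 positive and 14 negative members (median −0.23), none of them past the threshold.

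The remaining pathways are given by their counts. Over all genes, 47.1% of interactions were positive, the median was −0.12 and 5.36% passed the unadjusted threshold. Genes of NF-κB and Toll-like receptor signaling had 8 positive and 21 negative interactions (median −0.23), with the adaptor kinase *Irak2* at 4.60 (SE 1.90) and the DNA sensor *Tlr9* at −4.79 (SE 1.46). Interferon-stimulated genes had 17 and 19 (median −0.24), with *Bst2*, which encodes tetherin, at −5.0 (SE 1.49). Chemokine receptors had 7 and 13 (median −0.97), with *Ccr7* at 4.24 (SE 1.86) and *Ccr4* at −4.56 (SE 1.79). Of 30 genes of lysosome and endocytosis, 28 were negative (median −0.48) and none passed. Their mean log2 signal per array was 12.04 and 12.98 with scramble and 13.38 and 13.36 with antagomir-21 among GFP exosome arrays, and 12.05 and 12.75 with scramble and 13.51 and 11.91 with antagomir-21 among miR-21 exosome arrays. With miR-21 exosomes one antagomir array was the highest and the other the lowest of the 8, the median of the list moved to −0.23 after quantile normalization, and without 1 array at a time it ran from −1.33 to 0.33. Cytosolic ribosomal proteins had 6 positive and 20 negative members (median −0.28), with *Rpl12* at 5.14 (SE 1.27), a value that was 0.48 with lipofectamine in place of scramble.

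Genes of the mitochondrial respiratory chain had 20 positive and 26 negative interactions (median −0.23), glycolysis 5 and 12 (median −0.44), cholesterol synthesis and uptake 8 and 11 (median −0.24), the unfolded protein response 14 and 14 (median 0.07) and MHC class II presentation 2 and 8 (median −0.25), and none of these members passed. Heat shock and oxidative stress genes had 13 and 12 (median 0.05), with the chaperone gene *Hspa1a* at −6.55 (SE 2.33). Complement components and receptors had 4 and 11 (median −0.64), with the complement component *C2* at −3.87 (SE 1.46). Fc, scavenger and efferocytosis receptors had 8 and 14 (median −0.74), with the receptor tyrosine kinase *Tyro3* at −4.56 (SE 1.73). Cell cycle and DNA damage checkpoint genes were even, 16 and 16 (median −0.02), with members that passed in both directions. *Brca1*, a DNA repair gene, read 9.11 and 7.43 with scramble and 3.21 and 3.0 with antagomir-21 among GFP exosome arrays, and 6.26 and 8.12 with scramble and 8.33 and 9.33 with antagomir-21 among miR-21 exosome arrays. Antagomir-21 with GFP exosomes was low and every other group higher, and the interaction was 6.81 (SE 1.50), but its other probe sets gave −1.23, 0.04 and −5.43. *Chek1*, a checkpoint kinase, read 9.42 and 7.33 (scramble) and 8.94 and 8.93 (antagomir-21) with GFP exosomes, against 8.96 and 9.88 (scramble) and 4.05 and 4.13 (antagomir-21) with miR-21 exosomes. Antagomir-21 with miR-21 exosomes stood apart, and its interaction was −5.89 (SE 1.33), with −1.22, 2.06, −2.90 and −3.17 on other probe sets. *Chek2* was at 3.50 (SE 1.53). Over the 23 pathway lists, 524 different genes were measured, of which 9 passed the unadjusted threshold in the positive and 11 in the negative direction (3.82%, against 5.36% of all genes).

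**Figure D4:**
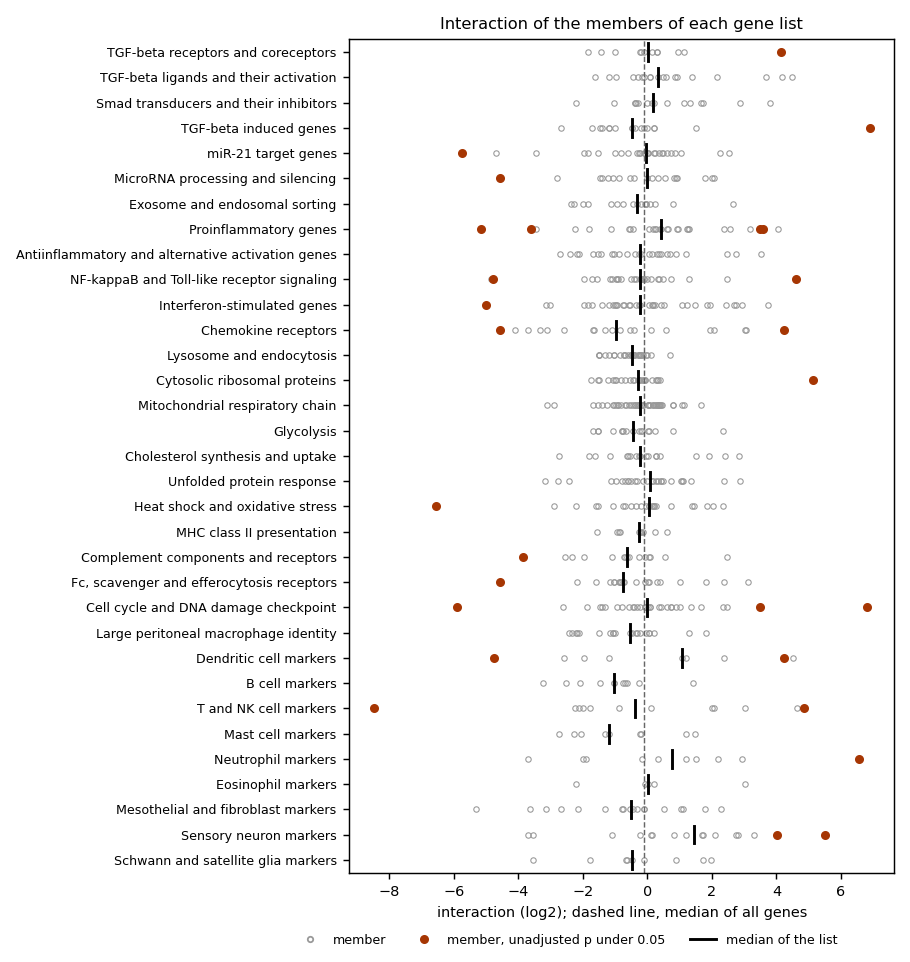
Interaction on the log2 scale (x axis) of the measured members of 33 gene lists, with the median of each list as a bar, members at an unadjusted p under 0.05 filled, and the median of all genes, −0.12, dashed. The medians lie between −1.17 and 1.45, and members of most lists lie on both sides of 0.

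A peritoneal lavage holds cells other than macrophages and an exosome preparation can carry neuronal RNA, so markers of such cells were read in the same way. In bulk samples, fewer cells of a type and less RNA per cell cannot be told apart. For comparison, 47.1% of all genes had a positive interaction, the median was −0.12 and 5.36% passed the unadjusted threshold. Genes of large peritoneal macrophage identity had 5 positive and 16 negative interactions (median −0.52, none past the threshold). Their mean log2 signal per array was 10.53 and 11.23 with scramble and 11.56 and 11.55 with antagomir-21 among GFP exosome arrays, and 10.82 and 11.40 with scramble and 11.47 and 10.61 with antagomir-21 among miR-21 exosome arrays. Both antagomir arrays with GFP exosomes lay above the other 6, and the lowest were 1 array of scramble with GFP exosomes and 1 of antagomir-21 with miR-21 exosomes. Sensory neuron markers had 12 positive and 4 negative interactions, the highest median of all lists (1.45), with *P2rx3*, an ATP-gated channel of nociceptors, at 4.03 (SE 1.57) and *Tac1*, the substance P precursor, at 5.50 (SE 2.37). Their mean log2 signal per array was 7.44 and 7.49 with scramble and 6.30 and 5.87 with antagomir-21 among GFP exosome arrays, and 7.79 and 7.43 with scramble and 6.92 and 7.74 with antagomir-21 among miR-21 exosome arrays. The antagomir arrays with GFP exosomes were the lowest of the 8, and one antagomir array with miR-21 exosomes lay below all scramble arrays. The median was 1.09 after quantile normalization and ran from 0.94 to 1.80 without 1 array at a time. The markers had a median mean signal of 6.85, beside 7.91 over all genes, between the lower and the higher level of signal. Other probe sets gave 0.39 for *Tac1* and 2.59 and 1.63 for *P2rx3*. *Scn10a*, another marker of the list, was at −3.54 (SE 2.39). The part of these markers in the interaction was not tested.

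Dendritic cell markers had 5 positive and 4 negative interactions (median 1.07), with *Ccr7*, also a chemokine receptor, and *Siglech*, a lectin of plasmacytoid cells, at −4.75 (SE 1.86). B cell markers had 1 and 10 (median −1.04) and mast cell markers 2 and 7 (median −1.17), and none passed. T and NK cell markers had 6 and 6 (median −0.39), with the coreceptor gene *Cd8a* at −8.47 (SE 1.92) and *Cd3g*, a chain of the T cell receptor complex, at 4.84 (SE 2.0), in opposite directions. Neutrophil markers had 6 and 4 (median 0.76), with *Ltf*, which encodes lactoferrin, at 6.56 (SE 1.88). Eosinophil markers had 3 and 2 (median 0.03), mesothelial and fibroblast markers 5 and 13 (median −0.51) and Schwann and satellite glia markers 3 and 6 (median −0.47), and none passed. The 10 marker lists held 120 different measured genes, 5 past the unadjusted threshold in the positive and 2 in the negative direction (5.83%, against 5.36% of all genes). No member of any list passed the adjusted test.

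Leaving out 1 array moved the interactions of the 26 list members past the unadjusted threshold. They ran from 1.93 to 6.55 for *Ccr7*, 2.02 to 4.97 for *Chek2* and 2.83 to 8.17 for *Tac1*. Such a fit leaves 1 array in a group, and the members were chosen for passing the threshold. Whether they pass it without an array therefore cannot show dependence on single arrays. Other probe sets of 11 of the 26 genes had the same sign in 14 of 24 cases (58.3%), against 51.1% over all genes. For *Cd8a* they were at −2.69, −1.75, 0.91 and 1.13, and for *Bmpr1b* at 2.08 and −2.19.

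The count of genes past the unadjusted threshold moved with single arrays more than with the normalization. It was 983 after quantile normalization and 981 after centring each array on its median. Leaving out 1 array at a time gave 819 to 1352 genes, and the balance of directions turned: 967 positive and 385 negative without replicate 1 of scramble with miR-21 exosomes, 410 and 791 without replicate 2 of antagomir-21 with miR-21 exosomes, and 308 and 511 without replicate 1 of scramble with GFP exosomes. Centring on the median moved the median interaction of all genes from −0.12 to 0.06 and the split to 597 positive and 384 negative. With lipofectamine in place of scramble, 878 genes passed, 307 of them among the 975. In none of these fits did a gene pass the adjusted test from limma.

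**Figure D5:**
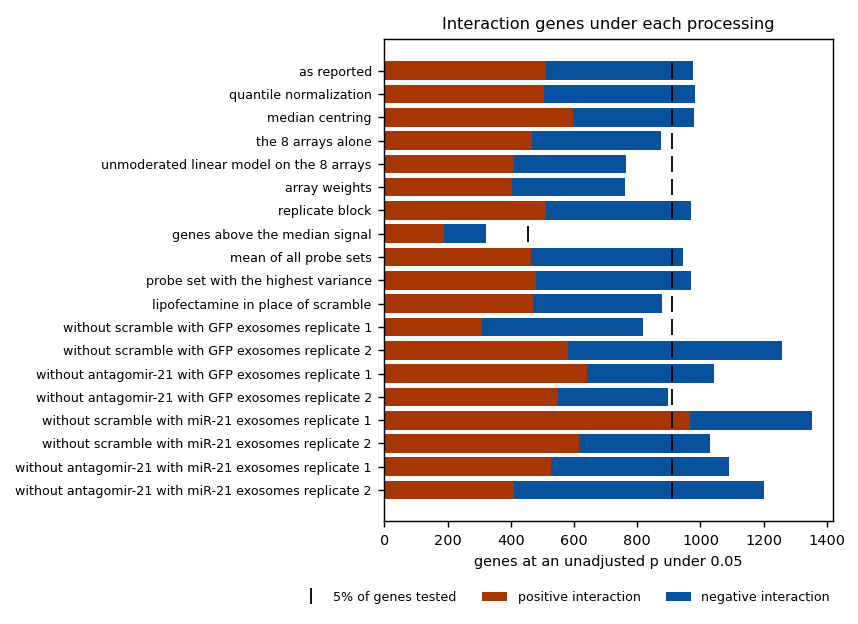
Genes with an unadjusted p under 0.05 for the interaction (x axis, their number from 0), split by direction, under each processing and without each array, with 5% of the genes tested as a tick. The total runs from 322, where only the genes above the median signal were tested, to 1352, and lies on both sides of the tick.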

How the data were processed

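Values are the log2 signals of probe sets that the authors deposited for 12 Affymetrix mouse arrays, on a scale with a common trimmed mean. The methods describe RMA with quantile normalization in affy, but the distributions differ between the deposited arrays; the software used was not given in the sources used here. No background level or detection call was available to this work, and precision is limited by the number of arrays. The methods and labels name different amplification kits (WT Pico and NuGEN).

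Of 45037 probe sets, 34945 carried 1 symbol in the annotation of the platform, 932 several and 9160 none that was listed; only the first were used, and 34741 were updated through their gene ID. The brightest probe set (highest mean of 12 arrays) stood for each of 18193 genes (9010 had more than 1). Groups came from the labels. The interaction was fitted with limma 3.58.1 in R 4.3.3 on 6 group means (6 residual degrees of freedom), with Benjamini-Hochberg adjustment over 18193 genes. The 33 gene lists (731 entries, 657 measured, matched by current symbol) are described by counts and medians. Members and lists were chosen with earlier results of these data known. Named genes are the 10 of smallest unadjusted p in each direction with 1 sign in all 16 choices of 1 array per group, the genes the study turns on, up to 4 members per list by smallest p, and *Vmp1*, *Csf1r*, *Adgre1* and *Lyz2*; of list members, those past the unadjusted threshold and a few others are given. Alternatives were other normalizations, fits, probe sets, controls and arrays left out. The fit was tested on simulated data with 200 changed genes and normal noise around 1 mean per gene. At an unadjusted p under 0.05 an interaction of 2 was recovered in 13%, of 4 in 58% and of 6 in 83% of the changed genes, and after adjustment in 0%. The real signals gathered around a lower and a higher level, which the simulated data did not have. These shares therefore describe the simulated data and need not hold for the real arrays.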

Additional observations from a re-analysis of the deposited data

Results flagged for a closer look

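In 806 genes (4.43% of 18193) the 2 antagomir-21 arrays did not overlap the 2 scramble arrays with either exosome, and the directions were opposite: 450 were higher after antagomir-21 with GFP exosomes and lower with miR-21 exosomes, and 356 the reverse. The difference was not tested by this count. As many genes, also 806, were apart with both exosomes in the same direction, 326 higher and 480 lower after antagomir-21. In each of the 20 leading genes the 4 high arrays did not overlap the 4 low ones. These genes were chosen from the same values, so this separation describes the selection.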

How the results depend on the processing

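No gene passed an adjusted p under 0.05 from limma under any alternative (smallest adjusted p 0.314 to 0.92), while 762 to 1352 genes passed the unadjusted threshold where all genes were tested. The count was 322 of 9096 (3.54%, against 5.36% of all genes) when only genes above the median signal were tested. It was 944 with the mean of all probe sets and 969 with the probe set of highest variance. It was 874 with the 8 arrays alone, 764 with no moderation and 762 with array weights. These weights were equal for the 2 arrays of each group, so they weighted groups and could not single out an array. Leaving out each array in turn gave 819 to 1352, with 0 adjusted calls each time. Deviations of arrays with the same replicate number correlated weakly between groups (15 correlations, −0.19 to 0.17). This cannot tell whether such arrays shared a culture, and the labels do not say. With a replicate block 970 genes passed unadjusted and 0 adjusted. Values of other sign were found with the probe set of highest variance for *Gm10658* (4.83), *Spata17* (4.11), *Cd80* (−2.16), *Ptgs2* (−1.56), *Tyro3* (0.84) and *Brca1* (−1.23), and with lipofectamine in place of scramble for *Il6* (1.65); the cause was not tested. These 7 values came from genes past the unadjusted threshold. Of the other values of named genes, 40 also had the other sign, in genes not past the threshold. The rest kept their direction: 847 kept the side of the threshold, 158 fell short of it and 7 newly passed. The median of 5 of 33 lists changed sign under quantile normalization and of 3 under median centring. With 2 arrays per group the median SE of an interaction was 1.85.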
